A study of Homo sapiens with 15 samples.

Results

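Expression of 10 genes of WNT signaling was examined in BEAS-2B, an immortalized line from human bronchial epithelium, after exposure to fine particulate matter (PM2.5). The genes were chosen by name and by role, with earlier results of these data known. They were the ligands *WNT9A*, *WNT5A*, *WNT5B* and *WNT7B*, the secreted inhibitors *DKK1* and *SFRP1*, the intracellular feedback genes *NKD1*, *NKD2* and *AXIN2*, and the nuclear factor *LEF1*. They are 10 of the 58219 genes in the count table, and all 10 passed the filter on low counts that left 17599 genes to be tested.

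The data were 15 RNA-seq libraries in 5 conditions, with 3 independent experiments in each. Cells grown in serum-free bronchial epithelial medium on collagen received medium alone, 1 µg/cm2 or 30 µg/cm2 of PM2.5 once and were collected after 24 h. In a separate protocol, cells plated at a lower density received medium alone or 1 µg/cm2 of PM2.5 every day and were collected on day 7, with washes between exposures. The particles came from filters of a Beijing air sampler and were extracted in water, and all cells were from 1 line, so the 3 experiments are repeats of the culture and not different donors.

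WNT proteins are secreted, lipid-modified ligands that bind Frizzled receptors and, for the beta-catenin branch, the co-receptors LRP5 and LRP6. Binding halts the destruction complex, in which AXIN proteins are the scaffold, so that beta-catenin accumulates and acts in the nucleus with factors of the LEF and TCF family. Several genes that this branch switches on restrain it in turn, and among them are *AXIN2*, *DKK1* and the NKD genes. WNT5A and WNT5B usually signal without beta-catenin. In the airway, WNT signals take part in lung branching, in the upkeep of basal cells and in repair.

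The sequence just upstream of a RefSeq start site is shown for *NKD2*, *WNT9A*, *DKK1* and *LEF1*. These 4 genes were called in a 24-h comparison and had a window in the table. *SFRP1*, which had the largest change of the 10 genes against control at 30 µg/cm2, had none. RefSeq (GRCh38.p14) windows of 250 bases were searched on both strands for GCGTG, the core of the element bound by the aryl hydrocarbon receptor, and for CTTTGA, a core bound by LEF and TCF factors. No match to one motif overlapped a match to the other. Capitals mark the matches, and each window reads 5' to 3' on the strand of its gene.
NKD2 (chr5:1008552-1008801, plus strand): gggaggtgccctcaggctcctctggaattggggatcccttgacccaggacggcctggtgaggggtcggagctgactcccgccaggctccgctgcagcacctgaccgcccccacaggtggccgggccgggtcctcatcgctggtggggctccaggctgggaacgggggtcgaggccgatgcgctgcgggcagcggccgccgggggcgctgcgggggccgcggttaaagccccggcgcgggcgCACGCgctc
WNT9A (chr1:227947933-227948182, minus strand): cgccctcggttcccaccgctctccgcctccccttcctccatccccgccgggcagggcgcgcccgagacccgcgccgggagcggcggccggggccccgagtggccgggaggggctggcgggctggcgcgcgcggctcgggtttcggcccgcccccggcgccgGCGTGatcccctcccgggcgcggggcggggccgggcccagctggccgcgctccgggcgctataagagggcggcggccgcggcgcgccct
DKK1 (chr10:52314031-52314280, plus strand): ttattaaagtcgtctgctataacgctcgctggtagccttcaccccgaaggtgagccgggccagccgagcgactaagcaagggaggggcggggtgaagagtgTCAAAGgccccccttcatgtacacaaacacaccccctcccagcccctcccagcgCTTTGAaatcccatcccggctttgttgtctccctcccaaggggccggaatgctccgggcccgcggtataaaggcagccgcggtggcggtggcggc
LEF1 (chr4:108166302-108166551, minus strand): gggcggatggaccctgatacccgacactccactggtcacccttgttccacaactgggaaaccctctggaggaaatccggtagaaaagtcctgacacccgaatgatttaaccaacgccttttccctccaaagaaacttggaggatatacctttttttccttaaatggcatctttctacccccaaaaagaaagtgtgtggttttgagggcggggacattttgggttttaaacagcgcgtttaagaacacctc

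The window of *NKD2* held 1 match to the first motif, read as CACGC, whose first base lay 9 bases before the start site, and that of *WNT9A* held 1 match that began 89 bases before it. The window of *DKK1* held 2 matches to the second motif, 1 on each strand, that began 95 and 149 bases before the start site. No match to either motif was found in the window of *LEF1*. That window lies within the span of the counted gene, chr4:108047545-108168956, and not at its 5' end. Of 35116 RefSeq promoters of the same length, 32.2% held the first motif and 11.2% the second, so a match to the first is common. Of the 10 genes, 6 had a window in the table, among them *WNT5A* with 1 match to the first motif in 1 of its windows and *WNT5B* with none. Those windows too lie within the counted spans of their genes. *WNT7B*, *NKD1* and *AXIN2*, like *SFRP1*, had no window. A match describes the letters in a window and is not evidence that a factor binds there.

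The libraries held 21460981 to 34724765 counts on genes, and 3 counts in a library equal 0.0866 to 0.149 CPM, counts per 1e6 counted reads after scaling libraries by the trimmed mean of M-values (TMM), a floor for counting error only. *CYP1A1*, which the aryl hydrocarbon receptor induces, stood at 0.565 to 2.89 CPM in the 6 control libraries and at 12.9 to 152 CPM in the 9 exposed ones. At 24 h it had 88.9 to 152 CPM after 1 µg/cm2 and 12.9 to 42.9 CPM after 30 µg/cm2. Exposure was thus visible in every exposed library, while the level did not follow the order of the doses. All 8 epithelial markers, such as *KRT5*, *KRT8*, *CDH1* and *EPCAM*, were detected in every library, but their sum was 3950 to 4390 CPM in the 24-h controls, 1748 to 2872 CPM after 30 µg/cm2, 3483 to 4226 CPM in the repeated-protocol controls and 2504 to 2712 CPM after daily exposure. The part of this fall in the results below was not tested. The sum of 7 fibroblast markers was 59.5 to 128 CPM, with *COL1A1* at 22.3 CPM or more in every library. Within that list *COL1A2*, *COL3A1*, *PDGFRB* and *DCN* were also detected in every library, at 3.84 CPM or more. *PDGFRA* reached 0.836 CPM at most and *LUM* 0.936 CPM at most. Leukocyte markers, with *LYZ* at 0 in all 15 libraries, summed to 0.231 CPM at most, and endothelial markers to 0.345 CPM at most.

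The 3 libraries of 24-h experiment 2 stood apart. Within a condition, their counts differed from those of experiments 1 and 3 by a chi-square of 70.7 to 169 per degree of freedom, against 4.26 to 17.2 between experiments 1 and 3. The 24-h comparisons were therefore also fitted with experiment as a replicate block, which compares cells handled together, and without experiment 2, and these values are given where a call changed. After daily exposure the library of experiment 3 differed from those of experiments 1 and 2 by 24.4 and 19.0 per degree of freedom, against 4.57 between those, and the daily comparison was also fitted without experiment 3. Differences were tested with edgeR's quasi-likelihood test over all 17599 genes in one fit of the 15 libraries. Called genes had a p-value below 0.05 after Benjamini-Hochberg adjustment and changed by 0.6 or more in either direction on the log2 scale. The 24-h comparisons share control libraries, and in cultured cells of one line a change in RNA per cell cannot be told apart from a change in the mix of cell states.

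Across the exposures, *NKD2* and *WNT7B* were higher and *DKK1* and *SFRP1* lower in every exposed library than in the control of the same experiment. This sign held at both doses and under both protocols, but most of these changes missed the test. In the fit of all libraries *NKD2*, *DKK1* and *SFRP1* passed at the high dose against control, and only *NKD2* at the low dose. None of these genes passed after daily exposure, and *WNT7B* passed in no exposure. *WNT9A* was 2.18-fold lower after 30 than after 1 µg/cm2, and *LEF1* was 6.38-fold higher, both past the test. *AXIN2*, the gene most often used as a readout of the beta-catenin branch, was called in no exposure against its control. The plot of CPM by library shows these values for all 10 genes.

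**Figure D1:**
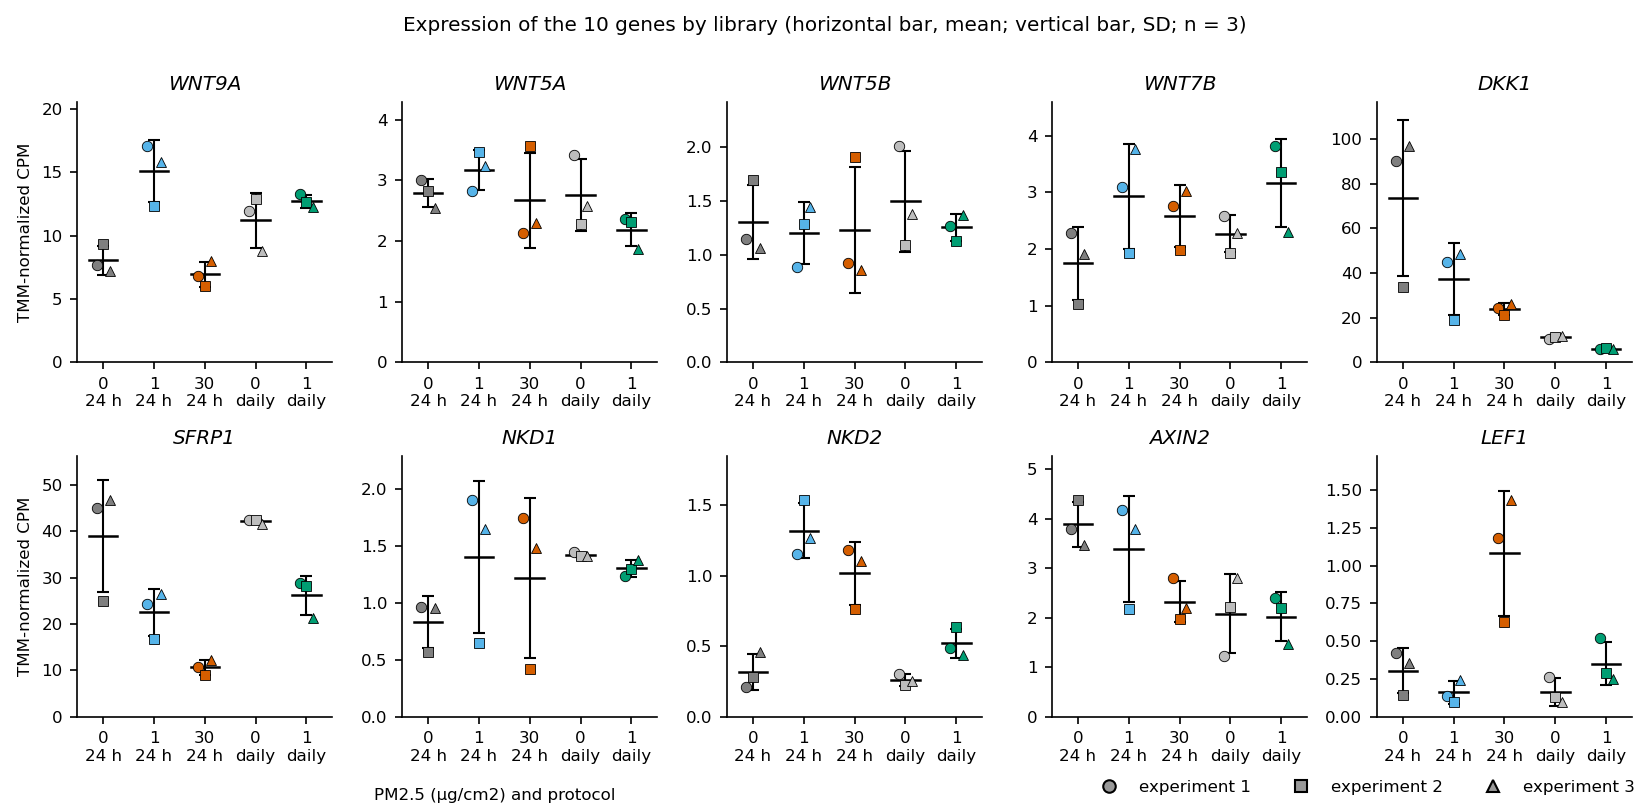
Each panel plots the TMM-normalized CPM of 1 gene (vertical axis, from 0) in the 15 libraries by PM2.5 dose in µg/cm2 and protocol (horizontal axis), with marker shape for the experiment, a horizontal bar for the mean and a vertical bar for the SD of 3 libraries. *NKD2* sits between 0.211 and 0.461 CPM in the control libraries and between 0.437 and 1.54 CPM in the exposed ones, and the squares of 24-h experiment 2 lie apart from the other experiments for *DKK1*, *SFRP1*, *WNT7B* and *NKD1*.

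Among the 10 genes, control cells expressed the 2 secreted inhibitors above the 4 ligands. Per exon length, in transcripts per 1e6 transcripts (TPM), *DKK1* led in the 24-h controls at 117 ± 57.5 TPM (SD, n = 3), followed by *SFRP1* at 28.5 ± 9.67, *WNT9A* at 7.01 ± 0.847 and *AXIN2* at 2.56 ± 0.281. The ranges of these 4 genes did not overlap. *WNT5A* at 1.31 ± 0.174, *WNT7B* at 1.21 ± 0.501 and *WNT5B* at 1.04 ± 0.239 TPM had overlapping ranges, and so did *LEF1* at 0.200 ± 0.103 with each of *NKD2* at 0.378 ± 0.143 and *NKD1* at 0.166 ± 0.0514 TPM. *WNT9A* was thus the most abundant of the 4 ligands in every control library. In the repeated-protocol controls *SFRP1* led at 36.7 ± 1.11 TPM and *DKK1* followed at 21.2 ± 1.90, with no overlap, and *WNT9A* came next at 11.7 ± 2.45.

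**Figure D2:**
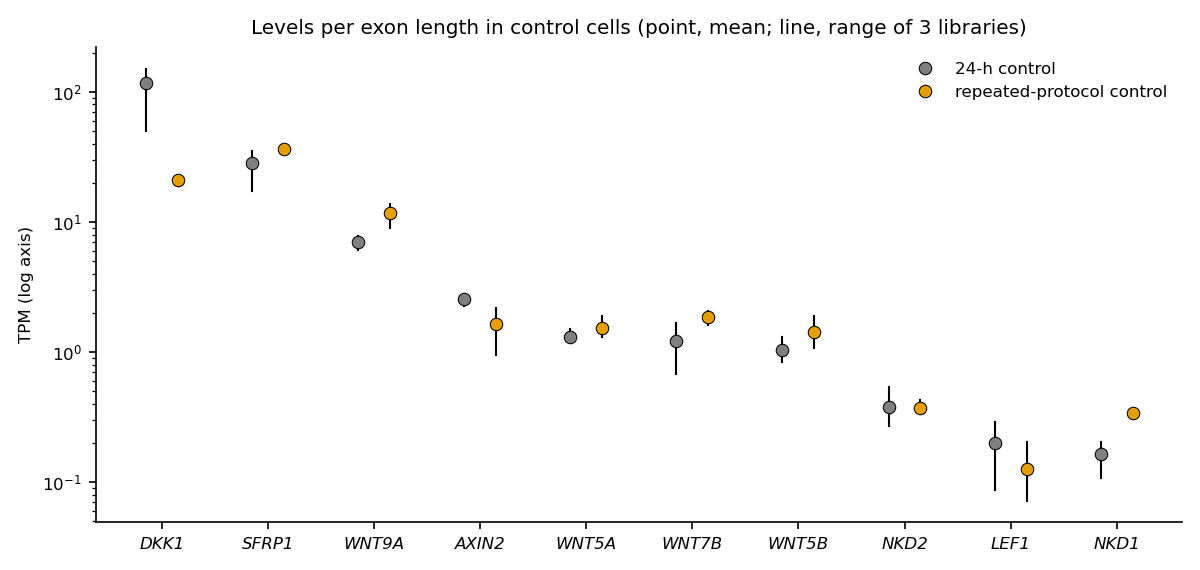
TPM (vertical log axis) of the 10 genes (horizontal axis, ordered by their mean in the 24-h controls) in the 24-h controls (grey) and the repeated-protocol controls (orange), with points for means and lines for the range of 3 libraries. *DKK1* is the only gene of the 10 whose mean falls from above 100 to 21.2 TPM between the controls, and *LEF1*, *NKD1* and *NKD2* stay below 0.6 TPM in both.

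Among the ligands, *WNT9A* carried the clearest differences. *WNT9A* (ENSG00000143816.7, chr1:227918656-227947898 on the minus strand of GRCh38) encodes a ligand best known from joints and blood stem cell development. It stood at 7.65, 9.37 and 7.19 CPM in the 24-h controls of experiments 1, 2 and 3, at 17.1, 12.3 and 15.8 CPM after 1 µg/cm2 and at 6.84, 6.00 and 8.0 CPM after 30 µg/cm2. All libraries at the low dose were above all controls and above all libraries at the high dose, whereas high-dose and control libraries overlapped. The high dose was 2.18-fold lower than the low dose (log2 fold-change -1.12 ± 0.18 SE, adjusted p = 0.00203), which passed the test. The ratio of the low dose to control was 1.88 (log2 fold-change 0.91 ± 0.18) and missed the test at an adjusted p of 0.19, while with the replicate block it passed at 0.0295. Experiment 2 gave the smallest ratio, with 0.39 on the log2 scale against 1.15 and 1.13 in experiments 1 and 3. Without experiment 2 the log2 fold-change was 1.16 (adjusted p = 0.000279).

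Daily exposure to the same dose left *WNT9A* near its control. The repeated-protocol controls had 12.0, 12.9 and 8.75 CPM and the daily exposed libraries 13.2, 12.6 and 12.2 CPM, with overlap. The log2 fold-change was 0.18 ± 0.18 (adjusted p = 0.749). The difference between the daily and the single response was -0.73 ± 0.26 on the log2 scale, with an adjusted p of 0.56 over all genes and an unadjusted p of 0.0136, and it was called without 24-h experiment 2 (-0.97, adjusted p = 0.00334).

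The other 3 ligands did not pass the test in any comparison of the fit of all libraries. *WNT7B* (ENSG00000188064.9, chr22:45920362-45977129, minus strand), a ligand that airway epithelium makes during lung growth, had 2.29, 1.04 and 1.91 CPM in the 24-h controls, 3.09, 1.93 and 3.76 CPM at the low dose and 2.76, 1.98 and 3.02 CPM at the high dose. Its ratio to the control of the same experiment was positive in all 9 exposed libraries, from 0.01 to 0.95 on the log2 scale. The fitted log2 fold-changes were 0.74 ± 0.32 at the low dose (adjusted p = 1), 0.55 ± 0.32 at the high dose (0.342) and 0.48 ± 0.32 after daily exposure (0.592). With the block the low dose gave 0.74 (adjusted p = 0.243), without experiment 2 it gave 0.71 (0.118), and with both changes *WNT7B* was called higher (0.70, adjusted p = 0.0317). At the high dose the block gave 0.58 (adjusted p = 0.0571) and leaving out experiment 2 gave 0.44 (0.197). *WNT5A* (ENSG00000114251.14, chr3:55465715-55490539, minus strand) lay between 1.87 and 3.57 CPM in the 15 libraries and *WNT5B* (ENSG00000111186.12, chr12:1529891-1647243, plus strand) between 0.862 and 2.01 CPM. Both encode ligands of the branch without beta-catenin, and for both the control and exposed libraries overlapped at both 24-h doses. Their log2 fold-changes in the exposures lay between -0.33 and 0.18, with SEs of 0.23 to 0.35, and neither was called with the block or without experiment 2. At the low dose *WNT5B* changed sign without experiment 2, from -0.10 to 0.08.

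Both secreted inhibitors fell at the high dose. DKK1 blocks the co-receptors LRP5 and LRP6, and SFRP1 binds WNT proteins outside the cell. *DKK1* (ENSG00000107984.9, chr10:52314296-52318042, plus strand) had 90.2, 33.5 and 97.0 CPM in the 24-h controls, 44.9, 19.0 and 48.3 CPM at the low dose and 24.4, 21.2 and 26.1 CPM at the high dose. The control of experiment 2 was below the low-dose libraries of the other experiments, and every high-dose library was below every control. The fall at the high dose was 3.08-fold (log2 fold-change -1.62 ± 0.35, adjusted p = 0.00997), and within experiments the log2 ratios were -1.88, -0.66 and -1.89. At the low dose the log2 ratios were -1.01, -0.81 and -1.0 and the fitted value was -0.97 ± 0.35, which missed the test (adjusted p = 1, and 0.0544 with the replicate block). Without experiment 2 it passed, at -1.0 and an adjusted p of 4.05e-06. The high dose against the low dose gave -0.65 ± 0.35 (adjusted p = 0.277), and -0.91 without experiment 2 (1.49e-06).

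*SFRP1* (ENSG00000104332.11, on chromosome 8, minus strand) had 45.0, 25.0 and 46.8 CPM in the 24-h controls, 24.4, 16.8 and 26.4 CPM at the low dose and 10.7, 8.98 and 12.2 CPM at the high dose. The high-dose libraries lay below all others, and at the low dose the library of experiment 3 overlapped the control of experiment 2. The high dose was 3.67-fold lower than control (log2 fold-change -1.88 ± 0.24, adjusted p = 0.000252) and 2.13-fold lower than the low dose (-1.09 ± 0.23, adjusted p = 0.00933). The low dose against control gave -0.79 ± 0.23, which missed the test at an adjusted p of 0.993 and passed it with the replicate block (-0.77, adjusted p = 0.0106) and without experiment 2 (-0.84, adjusted p = 0.000559).

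After daily exposure both inhibitors were again lower than their controls without overlap. *DKK1* had 10.3, 11.6 and 12.0 CPM in the controls and 6.12, 6.44 and 6.11 CPM after exposure, a log2 fold-change of -0.86 ± 0.36. *SFRP1* had 42.5, 42.5 and 41.6 CPM in the controls and 28.9, 28.2 and 21.4 CPM after exposure, a log2 fold-change of -0.69 ± 0.23. Neither passed the test in the fit of all libraries (adjusted p = 0.364 and 0.235), and both passed with the replicate block (adjusted p = 0.0233 and 0.00492) and in a fit of the repeated-protocol libraries alone (0.000603 and 0.00122). Without experiment 3 of this protocol, which leaves 2 pairs, neither passed with the block, at -0.80 (adjusted p = 0.164) and -0.58 (0.0742). The daily and the single response at 1 µg/cm2 differed by 0.12 ± 0.50 for *DKK1* and 0.10 ± 0.32 for *SFRP1* on the log2 scale, which was within the error of each.

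**Figure D3:**
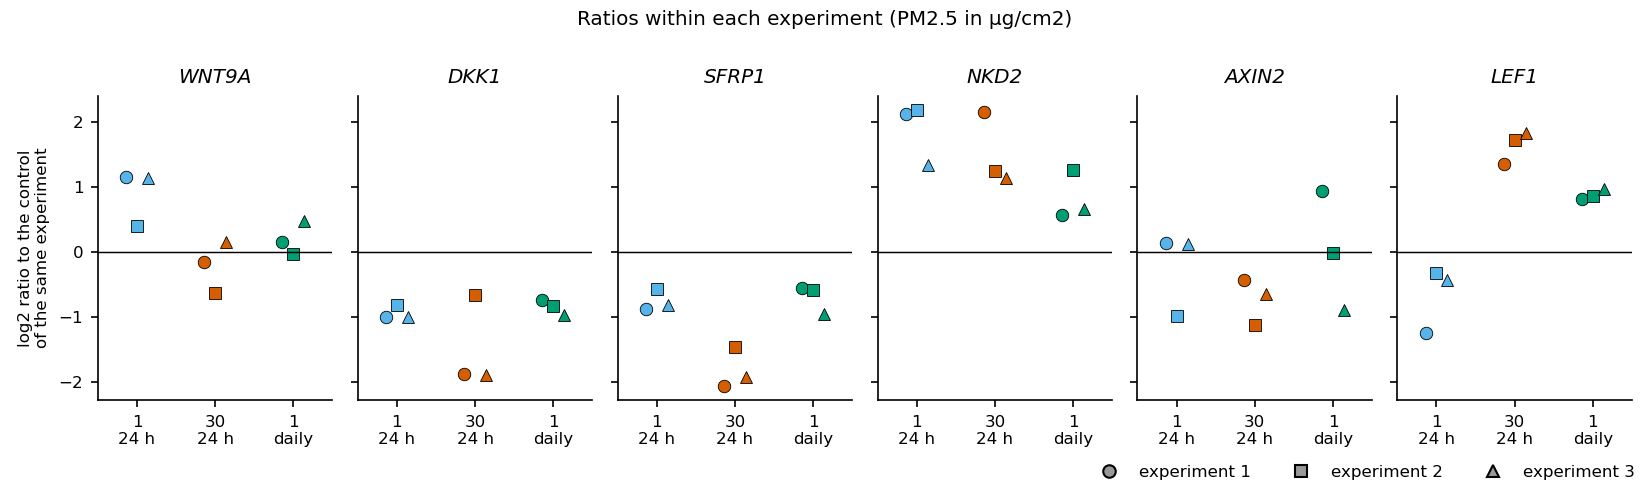
Log2 ratio of the CPM of an exposed library to the control of the same experiment (vertical axis) for 6 genes, by PM2.5 dose in µg/cm2 and protocol (horizontal axis), with 1 point per experiment and marker shape for its number. All 9 points of *DKK1* and *SFRP1* are below 0 and all 9 of *NKD2* above it, while *LEF1* lies below 0 after a single low dose and above it in the other exposures.

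*NKD2* rose at both 24-h doses. The NKD proteins bind Dishevelled, the relay that Frizzled receptors act through, and dampen the signal. *NKD2* (ENSG00000145506.13, chr5:1008829-1038943, plus strand) had 0.211, 0.282 and 0.461 CPM in the 24-h controls, 1.16, 1.54 and 1.26 CPM at the low dose and 1.18, 0.763 and 1.10 CPM at the high dose, from 6 to 13 counts in the controls and 22 to 36 in the exposed libraries. Every exposed library was above every control, and the doses overlapped. The rise was 4.10-fold at the low dose (log2 fold-change 2.04 ± 0.34, adjusted p = 0.0496) and 3.17-fold at the high dose (1.67 ± 0.34, adjusted p = 0.00649), and the doses did not differ by the test (-0.37 ± 0.30, adjusted p = 0.506). With the block the adjusted p-values were 0.0244 and 0.00423.

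The low-dose call of *NKD2* is close to the threshold. It was lost when any 1 of 14 of the 15 libraries was left out (adjusted p of 0.0548 to 0.426), with log2 fold-changes of 1.79 to 2.42. These were all libraries but the high-dose one of experiment 2, and the call passed without the high-dose library of experiment 2 (adjusted p = 0.0297). After daily exposure *NKD2* had 0.486, 0.635 and 0.437 CPM against 0.304, 0.225 and 0.251 CPM in the controls, with no overlap. The log2 fold-change of 1.00 ± 0.35 missed the test (adjusted p = 0.266, and 0.116 with the block), and it differed from the single response by -1.04 ± 0.49 (adjusted p = 0.721).

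*NKD1* (ENSG00000140807.6, chr16:50548330-50649249, plus strand), the paralog of *NKD2*, did not pass the test in any comparison. It had 0.963, 0.565 and 0.957 CPM in the 24-h controls, 1.90, 0.644 and 1.65 CPM at the low dose and 1.74, 0.416 and 1.48 CPM at the high dose. Experiments 1 and 3 were higher at both doses than all controls, and experiment 2 was not. The fitted log2 fold-changes were 0.76 ± 0.46 and 0.53 ± 0.46 (adjusted p = 1 and 0.546), and without experiment 2 they were 0.90 and 0.74 (0.0482 and 0.0307). After daily exposure its libraries had 1.23 to 1.37 CPM against 1.41 to 1.44 CPM in the controls, a log2 fold-change of -0.13 ± 0.44 (adjusted p = 0.939).

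*AXIN2* (ENSG00000168646.12, chr17:65528563-65561647, minus strand) encodes a scaffold of the destruction complex. It had 3.79, 4.38 and 3.47 CPM in the 24-h controls, 4.18, 2.18 and 3.79 CPM at the low dose and 2.79, 1.98 and 2.20 CPM at the high dose. The high-dose libraries were below all controls, and the low-dose libraries spanned both. The log2 fold-change of -0.73 ± 0.32 at the high dose missed the test (adjusted p = 0.172, and 0.0786 with the block). Without experiment 2 it was -0.54 (0.171). At the low dose the value was -0.19 ± 0.31 (adjusted p = 1), and 0.14 without experiment 2 (0.825). After daily exposure it was -0.05 ± 0.32 (0.973), with log2 ratios of 0.94, -0.01 and -0.90 in experiments 1 to 3 that pointed in different directions. The high dose against the low dose gave -0.55 ± 0.32 (adjusted p = 0.317), and -0.68 without experiment 2 (0.0898). Only without experiment 2 and with the block was *AXIN2* called lower there (-0.69, adjusted p = 0.0361).

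*LEF1* (ENSG00000138795.9, chr4:108047545-108168956, minus strand) encodes a DNA-binding partner of beta-catenin. It had 0.421, 0.141 and 0.354 CPM in the 24-h controls, 0.136, 0.0991 and 0.246 CPM at the low dose and 1.18, 0.624 and 1.44 CPM at the high dose. These values rest on 3 to 14, 2 to 7 and 18 to 36 counts, and every high-dose library was above all others. The high dose was 3.37-fold above control (log2 fold-change 1.75 ± 0.49, adjusted p = 0.0347) and 6.38-fold above the low dose (2.67 ± 0.53, adjusted p = 0.00648). The low dose against control gave -0.92 ± 0.58 (adjusted p = 1), and daily exposure 1.12 ± 0.56 (adjusted p = 0.458), with 0.518, 0.289 and 0.249 CPM against 0.266, 0.129 and 0.0941 CPM. The call against control was lost without any one of the 24-h controls (adjusted p = 0.0574, 0.110 and 0.0884 without experiments 1, 2 and 3), the high-dose library of experiment 1 (0.122) or 3 (0.148), and the repeated-protocol control (0.0533) or daily library (0.0529) of experiment 2, at log2 fold-changes of 1.45 to 2.04. With the replicate block the adjusted p was 0.00141, and without experiment 2 it was 0.00825. *LEF1* is not tested under a filter of 1 CPM or more in 3 libraries, so both calls end there.

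Over the 10 genes, 4 were called at 30 µg/cm2 against control, with *NKD2* and *LEF1* higher and *DKK1* and *SFRP1* lower. Of all tested genes, 3.82% were called higher and 4.24% lower in this comparison, and the block called the same 4 genes against 15.2% of all genes in either direction. Without experiment 2 *NKD1* was called as well, 5 of the 10 against 19.1% of all genes. In a fit of only the 6 libraries compared, *SFRP1* stayed called (adjusted p = 0.0224) and the calls of *NKD2* (0.101), *LEF1* (0.132) and *DKK1* (0.0763) were lost at nearly the same fold-changes. At 1 µg/cm2 against control 1 of the 10 genes was called, *NKD2*, against 0.0455% of all genes higher and 0.017% lower. The block called 3 there, *NKD2*, *WNT9A* and *SFRP1*, against 0.42% of all genes, and leaving out experiment 2 called 5, *NKD1* and *DKK1* included, against 2.11%. At 30 against 1 µg/cm2, *LEF1* was called higher and *WNT9A* and *SFRP1* lower, where 3.62% of all genes were higher and 4.22% lower. The block called the same 3 against 15.6% of all genes.

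Daily exposure gave 0 calls among the 10 genes by edgeR's quasi-likelihood test, where 0.102% of all genes were called higher and 0.125% lower, and 3 of the 10 (*NKD2*, *DKK1* and *SFRP1*) had an unadjusted p under 0.05. The likelihood ratio test of edgeR and DESeq2 also called 0, against 1.1% and 1.42% of all genes. The block called *DKK1* and *SFRP1* against 4.39% of all genes, and called 0 without experiment 3, against 0.529%. The difference between the daily and the single response was called for 0 of the 10 genes and for 0% of all genes, with 2 of the 10 (*WNT9A* and *LEF1*) at an unadjusted p under 0.05 and 0 calls by the likelihood ratio test and DESeq2. With the block it was again called for 0 of the 10, against 1.03% of all genes, and without 24-h experiment 2 for *WNT9A* and *NKD1*, against 9.84%. The median log2 fold-change of the 10 genes was -0.06 at the high dose, 0.04 at the low dose and -0.09 after daily exposure, beside 0.03, 0.01 and 0.01 over all tested genes.

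**Figure D4:**
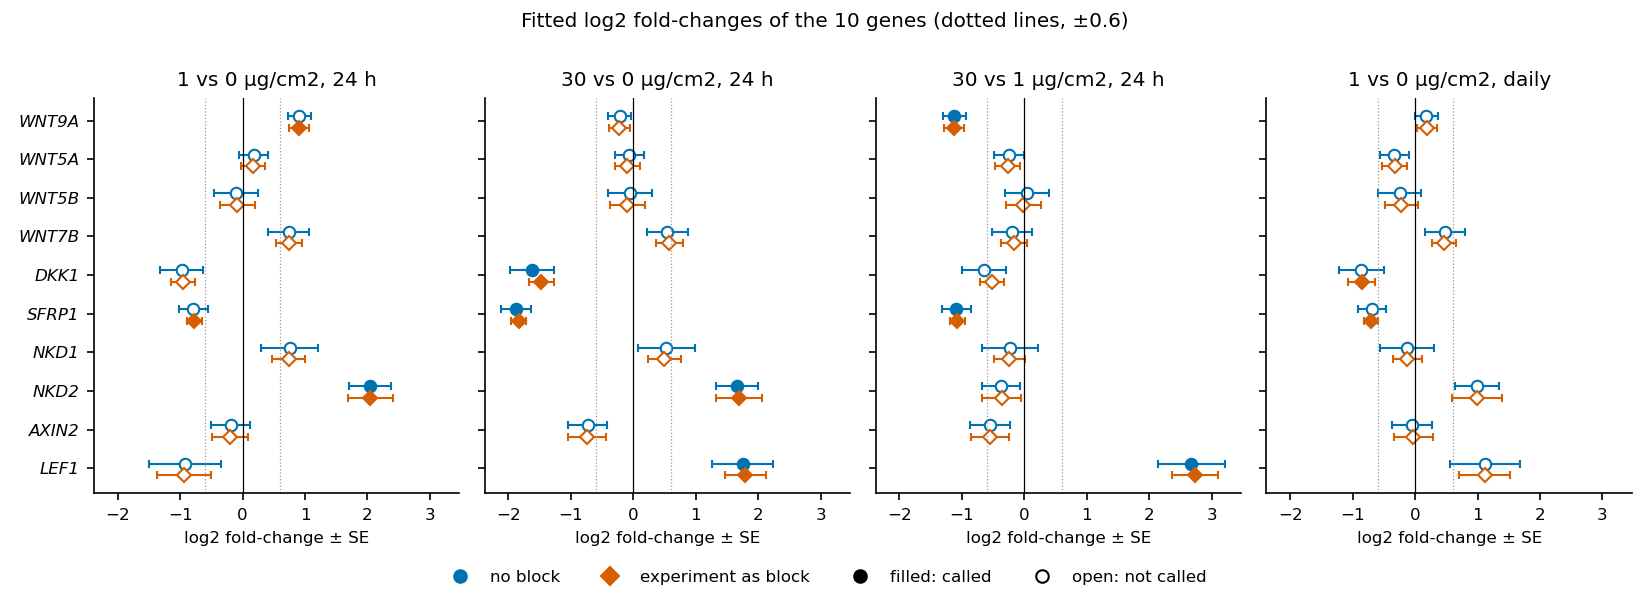
Fitted log2 fold-change (horizontal axis, bars for the SE) of the 10 genes (vertical axis) in 4 comparisons, without a block (blue circles) and with experiment as a block (orange diamonds), filled where the gene was called. At the low dose *NKD2* is the only filled circle while *WNT9A* and *SFRP1* gain a filled diamond, and after daily exposure the filled symbols are the diamonds of *DKK1* and *SFRP1*.

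Control cells of the 2 protocols differed in 2 of the 10 genes. *DKK1* was 6.51-fold lower in the repeated-protocol controls than in the 24-h controls (log2 fold-change -2.70 ± 0.37, adjusted p = 0.00017), with no overlap between the groups. *AXIN2* was 1.86-fold lower (-0.89 ± 0.32, adjusted p = 0.0478), at 1.22, 2.22 and 2.79 CPM, also with no overlap. Of all genes, 11.1% were called higher and 10.8% lower in this comparison, 21.9% in either direction, so 2 of 10 is near the share of all genes. The call of *AXIN2* was lost on leaving out any one of 9 libraries (adjusted p of 0.0520 to 0.174, with log2 fold-changes of -1.0 to -0.63), namely each 24-h control, the repeated-protocol controls and daily exposed libraries of experiments 1 and 2 and the low- and high-dose libraries of experiment 3, and that of *DKK1* was kept in each case. *WNT9A* was called higher (0.63, adjusted p = 0.0318) only without the repeated-protocol control of experiment 3, against 0.48 ± 0.18 (0.0661) with it. Plating density, time in culture and the number of medium changes differ between the protocols and cannot be told apart.

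The other genes of the pathway were taken from 8 lists of roles, with 99 genes in all. Of these, 76 were tested and 23 did not pass the filter on low counts, among them *WIF1*, *SOST* and the R-spondins *RSPO1* to *RSPO4*. At 30 µg/cm2 against control, 12 of the 76 were called, 5 higher and 7 lower, the 4 genes above included, which is 15.8% of the list beside 8.07% of all genes, and the median log2 fold-change was -0.05 beside 0.03 over all genes. All 12 were also called with the block, which called 15 of the 76, and without experiment 2, which called 20 (19.7% and 26.3% of the list, beside 15.2% and 19.1% of all genes). Of 16 receptors and co-receptors, 3 Frizzled genes were called lower and none higher in the fit without a block, among them *FZD2*, with 28.2 ± 0.437 CPM in controls and 11.6 ± 5.83 CPM (log2 fold-change -1.28 ± 0.28, adjusted p = 0.00922), and *FZD1* (-0.66 ± 0.12, 0.00398). The other was *FZD4* (-0.64 ± 0.17, 0.0253), which was chosen for naming after its values were seen. The block also called *ROR1* (1.02, adjusted p = 0.000252) and *FZD8* (0.66, 0.041) higher, as did the fit without experiment 2 (adjusted p = 0.00015 and 0.015), and these 2 genes too were named after their values were seen. The *FZD2* fall was smaller in experiment 2, with 18.2 CPM against 7.17 and 9.43 CPM in experiments 1 and 3.

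*LGR4*, a receptor for R-spondins, which strengthen WNT signals, fell from 51.5 ± 7.31 to 28.3 ± 5.24 CPM (-0.86 ± 0.22, adjusted p = 0.0246). Of 19 genes of the cytoplasmic relay, *NKD2* and *AXIN1* were called higher and none lower. *AXIN1*, the main scaffold of the destruction complex, rose from 55 ± 4.36 to 91.1 ± 15.4 CPM (0.73 ± 0.13, adjusted p = 0.00298) while its paralog *AXIN2* did not pass. Of 13 nuclear factors, 3 were called higher and 1 lower. *TCF7* rose from 13.2 ± 0.789 to 24.8 ± 3.39 CPM (0.91 ± 0.14, adjusted p = 0.000731), *PYGO1*, a cofactor of beta-catenin, rose by 0.66 ± 0.19 (0.0435), and *TCF7L1*, which mostly acts as a repressor, fell from 8.14 ± 0.677 to 3.37 ± 0.606 CPM (-1.27 ± 0.16, 0.00028). In a fit of only the libraries compared, *TCF7* and *TCF7L1* stayed called and *AXIN1*, *FZD1*, *FZD2*, *LGR4* and *PYGO1* did not. On leaving out 1 library, the call of *FZD1* was lost without the high-dose library of experiment 1 (-0.59) and that of *FZD2* without that of experiment 3 (adjusted p = 0.0558). The call of *LGR4* was lost without either of these or without the control of experiment 1 or 3 (adjusted p of 0.0524 to 0.0816), and that of *PYGO1* in 12 of 15 cases (0.0510 to 0.191).

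Of 9 tested secreted or surface inhibitors, only *DKK1* and *SFRP1* were called at the high dose, and the list had a median log2 fold-change of -0.33. Of 11 tested ligands edgeR's quasi-likelihood test called 0 at either dose against control, with 0 and 2 at an unadjusted p under 0.05 at the high and the low dose and medians of -0.06 and 0.18. The likelihood ratio test and DESeq2 each called 1 at the low dose, *WNT9A*, against 0.193% and 0.222% of all genes. Each called 0 at the high dose, against 10.4% of all genes. Without experiment 2 the high dose gave 2 calls, *WNT4* (1.02, adjusted p = 0.000182) and *WNT10A* (1.17, 0.00288), both higher, against -0.04 ± 0.46 for *WNT4* with all libraries. *WNT10A* was also called without only the high-dose library of experiment 2 (0.90, adjusted p = 0.0442), and at the low dose without experiment 2 and with the block (0.90, 0.030). Of 12 tested genes known as common feedback targets of beta-catenin, 3 were called higher at the high dose (*LEF1*, *NKD2* and *TCF7*) and 1 lower (*DKK1*), with a median of -0.11, so the list did not move one way. At the low dose 1 of the 76 genes was called, *NKD2*, with a median of 0.03. The block called 3 there, all of them among the 10 genes, and leaving out experiment 2 called 6. These 6 were the 5 of the 10 genes given above and *CCND1* (-0.86, adjusted p = 4.03e-05), a cyclin. The calls are 3.95% and 7.89% of the list, beside 0.42% and 2.11% of all genes. As the 10 genes were chosen with earlier results of these data known, these shares say little about the rest of the list. High against low dose gave 10 calls, 4 higher and 6 lower (13.2% beside 7.84% of all genes), all of them also called without experiment 2, and *TLE4*, a corepressor, was among those lower (-0.60 ± 0.15, adjusted p = 0.0212), though its fold-change fell just short of the threshold with the block and its call was lost without any one of 4 libraries, the low-dose ones of experiments 1 and 3 and the high-dose ones of experiments 2 and 3 (log2 fold-changes of -0.66 to -0.50).

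After daily exposure 0 of the 76 genes were called by edgeR's quasi-likelihood test, with 9 at an unadjusted p under 0.05. The likelihood ratio test and DESeq2 each called 1 of the 76, *FZD4*, where they called 1.1% and 1.42% of all genes, so this count is near the share of all genes. With the block 6 were called, all lower, which is 7.89% of the list beside 4.39% of all genes. Without experiment 3 and with the block 1 was called, *LRP6*, named after its values were seen (-1.19, adjusted p = 0.0496). *LGR4* was one of the 6, at 63.9 ± 4.20 CPM in controls and 41.2 ± 1.43 CPM after exposure. The median log2 fold-change of the 76 genes was -0.09 after daily exposure beside 0.01 over all genes. Between the controls 16 of the 76 were called, 9 higher and 7 lower in the repeated protocol, with a median of 0.24 beside 0.02. That is 21.1% of the list, near the 21.9% of all genes called in either direction. Without 24-h experiment 2 all 16 stayed called among 22 (28.9% beside 31%). Among the ligands *WNT4* and *WNT10A* were higher there (2.40 ± 0.47 and 2.23 ± 0.45) and *WNT7A* lower (-2.40 ± 0.59), *PORCN*, which attaches the lipid to WNT proteins, was lower (-0.91 ± 0.12), and *CTNNB1*, the gene of beta-catenin, was lower (-0.64 ± 0.16, and -0.55 without the 24-h control of experiment 3, which is short of the threshold).

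**Figure D5:**
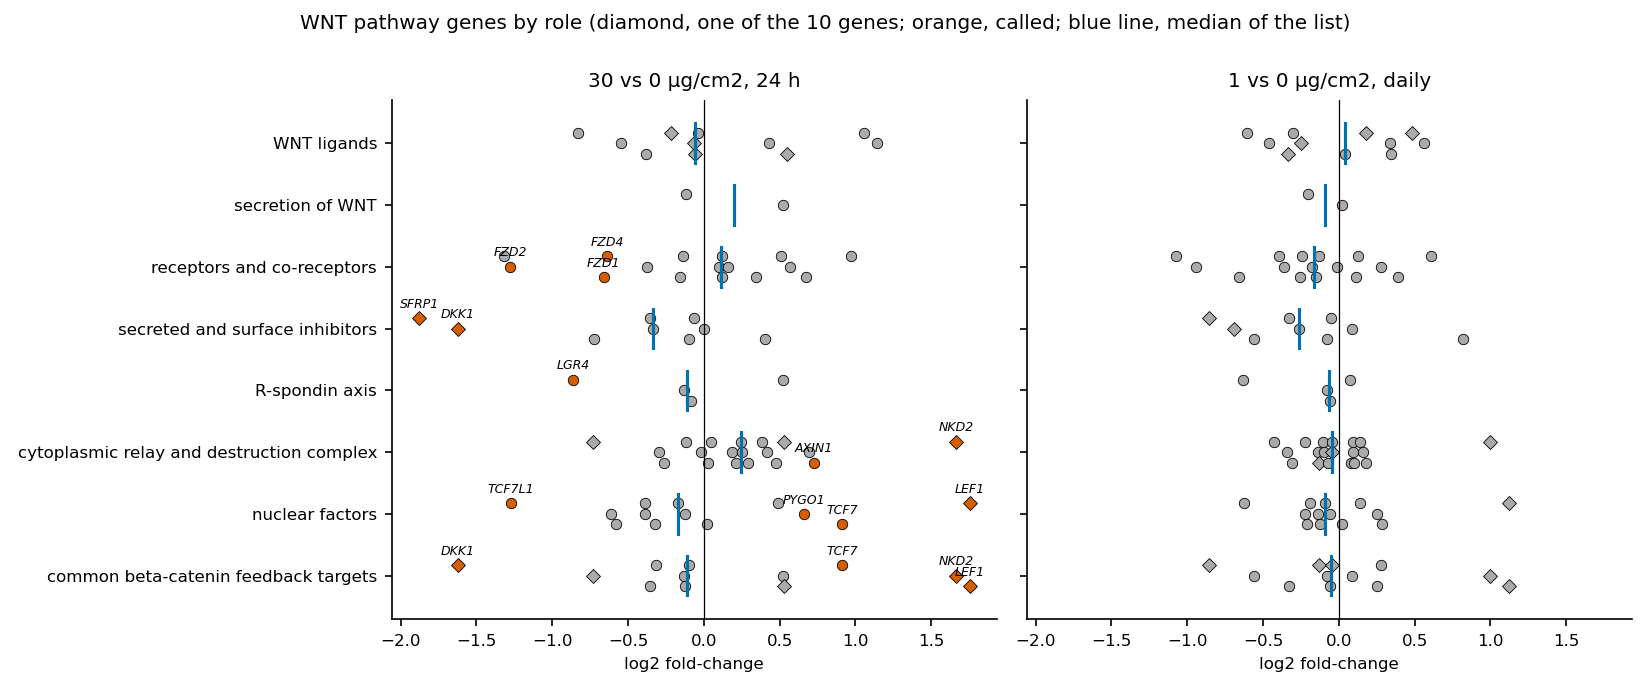
Log2 fold-change (horizontal axis) of the 76 tested pathway genes by role (vertical axis; a gene can stand in 2 lists) at 30 µg/cm2 for 24 h and after daily 1 µg/cm2, with orange for called genes, diamonds for the 10 genes and a blue line for the median of each list. *SFRP1* and *DKK1* are farthest to the left and *LEF1* and *NKD2* farthest to the right at 30 µg/cm2, and no gene is orange after daily exposure.

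As a description of likeness, the log2 CPM of 4 members was correlated with 13863 genes of at least 1 CPM over the 15 libraries, which share batches and conditions. The pattern of *NKD2* was most like those of *SLC7A5* (Pearson r = 0.937), *CYP1B1* (0.889) and *CADM1* (0.874). *LEF1* was nearest to *CXCL8* (0.939), *RXYLT1* (0.939) and *PTX3* (0.929), *WNT9A* to *DCLK1* (0.883), *NYAP1* (0.840) and *BMP8B* (0.808), and *AXIN2* to *ARHGAP17* (0.831), *DNAJB4* (0.814) and *CTBP1-AS* (0.805). Among the 10 genes, deviations from the mean of the condition went together for *DKK1* and *SFRP1* (r = 0.909), *SFRP1* and *WNT7B* (0.941) and *LEF1* and *WNT7B* (0.868), genes that were all lowest in experiment 2 under each 24-h condition.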

How the data were processed

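Poly-A RNA of 15 BEAS-2B cultures was sequenced as single-end reads. The authors aligned the reads with STAR and counted them per gene with featureCounts, and they deposited raw counts of 58219 genes without normalization. The methods name the genome GRCh38, whereas the submitters' processing notes list hg19; the coordinates in the deposited table are those of GRCh38. The annotation and the strand used in counting are not given in the sources used here, and gene names were found for 57437 genes. Exons of *NKD1*, *AXIN2* and *LEF1* overlap other genes, which had 0.3 counts per library or fewer.

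The counts were modelled with edgeR 4.0.16 (R 4.3.3). After filterByExpr, which kept 17599 genes, and TMM scaling, one quasi-likelihood fit (legacy setting) with 1 mean per condition covered the 15 libraries. The SE of a log2 fold-change is that value over the root of its F statistic. CPM are TMM-normalized, and TPM were computed from the deposited exon lengths without TMM scaling. P-values were adjusted over all tested genes. DESeq2 1.42.0 was an alternative. The fit was tested on simulated data. The floor of 3 counts concerns counting error alone.

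The series record gives the replicate number as the experimental batch, so libraries of one number within a protocol were taken as paired and the number was used as a replicate block. Deviations from group means correlated at 0.201 to 0.721 between same-numbered 24-h libraries and at 0.121 to 0.181 in the repeated protocol. Between differently numbered libraries of different conditions the values were -0.683 to 0.453 and -0.127 to -0.034, so the 24-h ranges overlapped. The numbers of the 2 protocols are different experiments, so their controls were not compared with a block. No 2 libraries agreed within sampling noise.

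The 10 genes and the role lists were chosen with earlier results of these data known, as was the alternative that leaves out 24-h experiment 2. Named besides the 10 genes are at most 20 listed genes that were called in any comparison, by smallest adjusted p-value, and for 4 genes the 3 genes of highest correlation. *WIF1*, *SOST* and *RSPO1* to *RSPO4*, which were not tested, were named after their values were seen. Promoter windows are from RefSeq.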

Additional observations from a re-analysis of the deposited data

Results flagged for a closer look

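For *LEF1* at 1 µg/cm2 of PM2.5, the ratios to control had opposite signs under the 2 protocols, though neither exposure passed the test. Within experiments the log2 ratios were -1.25, -0.32 and -0.43 after a single exposure and 0.81, 0.85 and 0.96 after daily exposure. The difference was 2.04 ± 0.80 on the log2 scale, which missed the test over all genes (adjusted p = 0.631, and 0.0928 with the replicate block). It was called only without 24-h experiment 2 and with the block (adjusted p = 0.0328). The low-dose libraries held 2 to 7 counts.

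The ratios of *NKD1* also had opposite signs, with log2 ratios of 0.93, 0.17 and 0.74 after a single exposure and -0.22, -0.12 and -0.04 after daily exposure. Neither exposure passed the test, and the daily log2 fold-change of -0.13 ± 0.44 was within its error. The difference of -0.89 ± 0.63 missed the test as well (adjusted p = 0.847, and 0.191 with the block), and without 24-h experiment 2 it was -1.02 with an adjusted p of 0.0342.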

How the results depend on the processing

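Over 1559 alternative values of the 10 genes, 1445 kept their direction and side of the threshold, 40 calls were lost, 28 were gained, 46 values that were not called changed sign and 0 called values did. Shares of all tested genes called are given beside the counts. At 30 µg/cm2 against control 4 genes were called (8.07% of all genes), 1 in a fit of only the libraries compared (2.23%), 3 with the filter of 1 CPM in 3 libraries, under which *LEF1* is not tested (9.46%), and 5 without 24-h experiment 2 (19.1%). At 1 µg/cm2 against control 1 gene was called (0.0625%). That count was 0 with size factors of the RLE type (0.0568%), with no filter (0.104%) and with only the libraries compared (0.0124%), 2 with the likelihood ratio test (0.193%) and with DESeq2 (0.222%), 3 with the replicate block (0.42%), 5 without 24-h experiment 2 (2.11%), 6 without it and with the block (3.29%), and 0 to 1 on leaving out each library in turn (0.0221% to 0.249%). At 30 against 1 µg/cm2 the count of 3 (7.84%) became 0 with only the libraries compared (0.918%) and 2 with the filter of 1 CPM (9.25%). Without experiment 2 and with the block it was 5, *DKK1* and *AXIN2* included (18.8%). After daily exposure the count of 0 (0.227%) became 2 with the replicate block (4.39%) and with only the libraries compared (6.23%). For the daily against the single response the count of 0 became 2 without 24-h experiment 2 (9.84%) and 3, *LEF1* included, without it and with the block (12.3%). Between the controls the count of 2 (21.9%) became 1 with no filter (11.6%) and lay between 1 and 3 on leaving out each library in turn (15.7% to 24.9%). A fit of only the libraries compared estimates the spread from fewer libraries. It called a smaller share of all genes in the 24-h dose comparisons and a larger share after daily exposure. The cause of these and of the other changes was not tested. Leaving out experiment 2 together with the block, and leaving out experiment 3 of the repeated protocol, were chosen after seeing the data. *WNT4* at 30 µg/cm2 had a log2 fold-change of -0.04 (adjusted p = 0.975) that became 1.02 without experiment 2 and 1.01 with the block as well, called in both, and its 24-h control of experiment 2 had 7.96 CPM against 2.26 and 2.41 CPM in the others. The replicate block changed no other call of the 10 genes than those given in the report. *NKD2* and *LEF1*, with 2 to 36 counts per library, are the genes in which depth limits the precision most.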
